A study of Rattus norvegicus with 17 samples.

Results

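The B cell and plasma cell genes examined here are Cd22, Cd79a, Cd79b, Ms4a1 and Blnk of B cells, Pou2af1, which serves both stages, Igj and Tnfrsf17 of plasma cells, and Pigr of the epithelium that carries their IgA. A probe was taken for a gene when the array's gene name, without its suffix for predicted or mapped genes, was that of the gene. By this rule 7 of the 9 genes were found, each with 1 probe, among 41012 probes with 35561 names; Cd79a and Pou2af1 were not found by gene name. Expression was measured in colon mucosa of 17 female rats of the inbred Fisher 344 strain, transgenic for HLA-B27/β2-microglobulin, aged 8 to 10 weeks when the feeding began. HLA-B27 is a human class I molecule, and rats that carry it with human β2-microglobulin develop colitis. All 17 rats carried both transgenes and ate a purified Western diet. For 9 rats it held 30 mmol calcium per kg (low calcium) and for 8 it held 120 mmol per kg at the expense of glucose (high calcium), so that more calcium went with less glucose. No rat without the transgenes was analysed here.

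B cells recognise antigen through a surface immunoglobulin whose signal is carried by CD79A and CD79B, and they lose most of this apparatus when they become plasma cells. In the gut, plasma cells below the epithelium secrete dimeric IgA, in which the J chain encoded by Igj joins the monomers. The polymeric immunoglobulin receptor, Pigr, is made by epithelial cells, binds the J chain-bearing dimer and carries it into the lumen.

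Each rat's RNA was labelled with Cy5 and hybridised beside a Cy3-labelled pool of all animals, so each value is a log2 ratio of the rat to the pool, where 0 is the pool's level. Ratios of different probes were not compared as levels. The median Cy5 signal of a rat's array was 146.8 to 180.8 over a median background of 43.5 to 53.5, and 60.0% to 71.9% of the probes were well above background. All 13 of the colon epithelium markers listed, such as Cdh1, Vil1 and Muc2, were well above background on all 17 arrays. The number of arrays limits the precision, and the median standard error of a diet difference over the 27083 probes tested was 0.057. No probe differed between the diets at an adjusted p under 0.05 (limma with Benjamini-Hochberg adjustment, smallest adjusted p = 0.098), while 2381 of the probes, 8.79%, had an unadjusted p under 0.05. Of all probes tested, 4.84% were lower and 3.95% higher at high calcium at that unadjusted threshold.

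Both plasma cell genes were lower at high than at low calcium on average, the epithelial IgA receptor was higher, and the 4 B cell genes lay close to 0 with either sign. Of the 7 genes, 3 had an unadjusted p under 0.05, 2 lower and 1 higher, against 8.79% of all probes, and none passed the adjusted threshold. The 2 lower genes, Igj and Tnfrsf17, moved together over the rats (r = 0.983), so they are not independent. The median difference over the 7 genes was -0.015, against 0.0068 over all probes tested. The genes were chosen with earlier results of these data known, so their share beside that of all probes is a description. In tissue scrapings fewer cells of a type and less RNA per cell cannot be told apart. The arrays lay on 5 slides, read from the barcodes, and slides 1 to 4 held 2 rats of each diet. Slide 5 held low calcium rat 1 alone. Values centred by slide and differences with the slide as a block therefore draw on the other 16 rats.

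**Figure D1:**
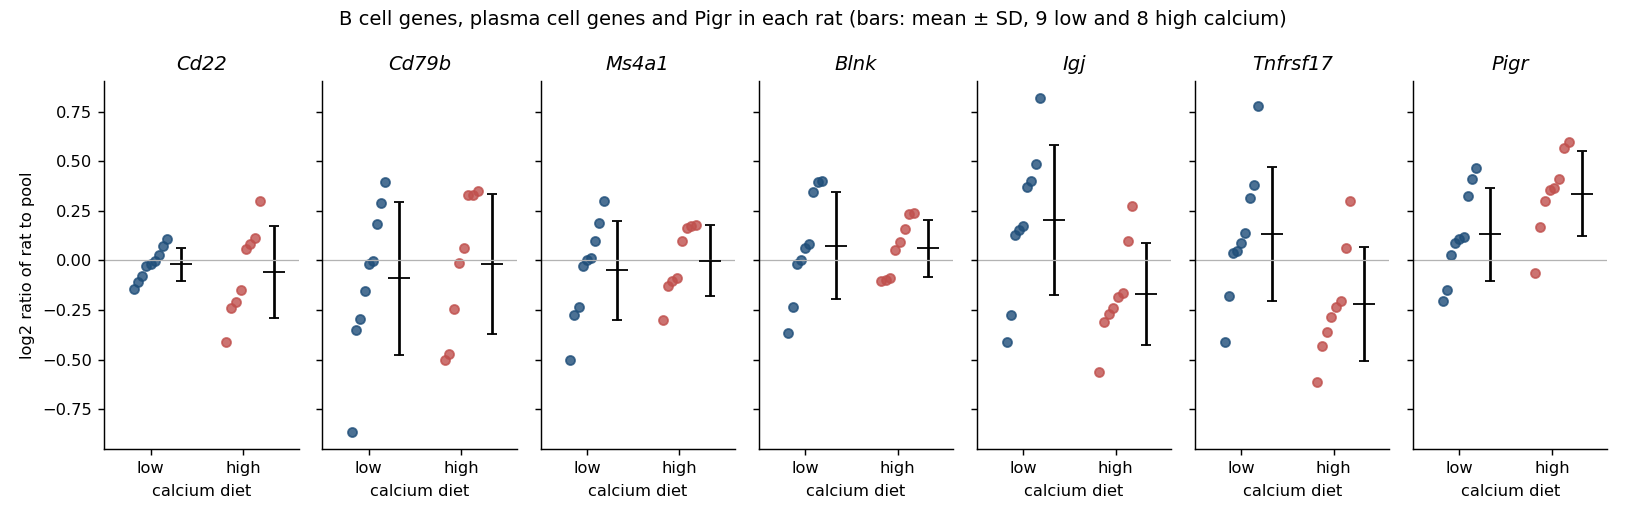
Log2 ratio of rat to pool (vertical axis) for each of the 7 genes, with 1 point per rat, blue for the 9 low calcium rats and red for the 8 high calcium rats, and bars for mean ± SD. For Igj and Tnfrsf17, 7 of 8 high calcium rats lie below the low calcium mean, for Pigr 7 of 8 lie above it, and the diets overlap in every panel.

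Igj encodes the J chain, and its probe lies at chr14:21125752-21125811 on the plus strand (rn3, the build of the array's annotation). Its log2 ratio ran from -0.41 through a median of 0.17 to 0.82 in the low calcium rats and from -0.56 through -0.21 to 0.28 in the high calcium rats. Of the low calcium rats 4 lay above every high calcium rat, and 1 high calcium rat lay below every low calcium rat, so the groups overlapped over most of their range. The means were 0.20 ± 0.38 (SD, n = 9) and -0.17 ± 0.26 (SD, n = 8). The difference, high minus low calcium, was -0.37 ± 0.14 (SE), or 1.30-fold lower, with an unadjusted p of 0.0127 and an adjusted p of 0.41 (limma). It was lower in 7 of 8 high calcium rats than the low calcium mean.

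Tnfrsf17 encodes BCMA, a receptor for survival signals of plasma cells, and its probe lies at chr10:4187731-4187790 on the minus strand (rn3). Its log2 ratio ran from -0.41 through a median of 0.087 to 0.78 at low calcium and from -0.61 through -0.26 to 0.30 at high calcium. The low calcium rat at the top (rat 5), the low calcium rat at the bottom (rat 15), the high calcium rat at the top (rat 14) and that at the bottom (rat 10) were the same animals as for Igj. The difference was -0.35 ± 0.13 (SE), or 1.28-fold lower, with an unadjusted p of 0.0148 and an adjusted p of 0.43 (limma).

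The diet differences of both plasma cell genes were unequal between slides. Within slides 1, 2, 3 and 4 the Igj difference was -0.45, -1.09, 0.05 and 0.07, and that of Tnfrsf17 was -0.42, -1.10, 0.03 and 0.08. On 2 of the 4 slides, then, both genes were lower at high calcium, and on the others they differed by less than 0.1. With the slide as a block the Igj difference was -0.35 ± 0.15 (SE; unadjusted p = 0.031, limma). With each rat left out in turn it stayed between -0.45 and -0.30 with an unadjusted p under 0.05 each time, but centring arrays on their median in place of loess gave -0.26 ± 0.21 (SE; unadjusted p = 0.23, limma).

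**Figure D2:**
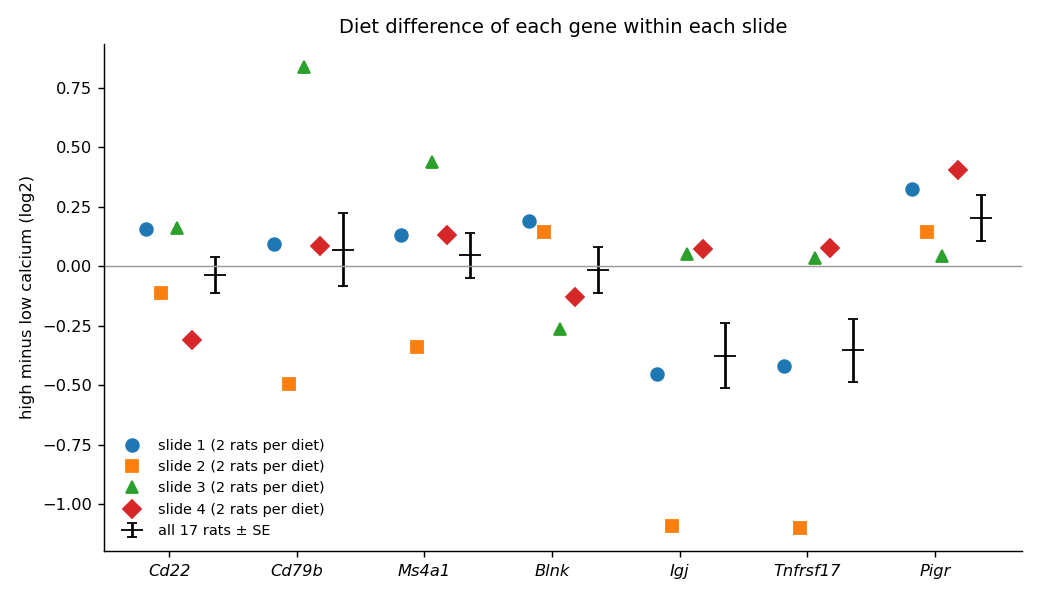
Diet difference (log2, high minus low calcium) for each gene within slides 1 to 4 (coloured marks, 2 rats per diet each) and over all 17 rats (black bar, ± SE). Igj and Tnfrsf17 are near -0.4 on slide 1, near -1.1 on slide 2 and just above 0 on slides 3 and 4, while Pigr is above 0 on all 4 slides.

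Pigr encodes the receptor that carries IgA across the epithelium, and its probe lies at chr13:43816545-43816979 on the plus strand (rn3). Its log2 ratio ran from -0.21 through a median of 0.11 to 0.47 at low calcium and from -0.06 through 0.36 to 0.60 at high calcium. Of the high calcium rats 2 lay above every low calcium rat, and 2 low calcium rats lay below every high calcium rat. The means were 0.13 ± 0.23 (SD, n = 9) and 0.34 ± 0.21 (SD, n = 8), and the difference was 0.21 ± 0.097 (SE), or 1.15-fold higher, with an unadjusted p of 0.0457 and an adjusted p of 0.56 (limma). Within slides 1 to 4 it was 0.33, 0.15, 0.04 and 0.41, higher at high calcium on each. The unadjusted p was under 0.05 in 5 of the 17 fits that left out 1 rat, and it was 0.10 without rat 2.

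Cd79b, the signalling partner of the B cell receptor (probe at chr10:95717984-95718043, minus strand, rn3), had the largest spread within diets of the 7 genes. Its log2 ratio ran from -0.86 through a median of -0.016 to 0.40 at low calcium and from -0.50 through 0.025 to 0.35 at high calcium. Every high calcium rat lay within the low calcium range, and 1 low calcium rat lay below and 1 above all of them. The difference was 0.07 ± 0.16 (SE; unadjusted p = 0.65, adjusted p = 0.93, limma). The standard deviation within diets, 0.37, was larger than that of 99.1% of the probes tested. Igj, at 0.33, and Tnfrsf17 stood at the percentiles 98.6 and 98.3 of the same measure. Within the slides the Cd79b difference was 0.096, -0.49, 0.84 and 0.085.

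Ms4a1 encodes CD20, a surface protein of B cells that is lost in plasma cells (probe at chr1:213922566-213922625, minus strand, rn3), and it was well above background on 14 of 17 arrays, 7 per diet, and not on those of rats 7, 8 and 10. Its log2 ratio ran from -0.50 through a median of 0.0020 to 0.30 at low calcium and from -0.30 through 0.0035 to 0.18 at high calcium. All 8 high calcium rats lay within the range of the low calcium rats. The difference was 0.05 ± 0.095 (SE; unadjusted p = 0.62, adjusted p = 0.92, limma). Rat 7 was the lowest of the low calcium rats for both Ms4a1 and Cd79b and rat 1 the highest, while rat 10 was the lowest of the high calcium rats for both; for Ms4a1 the values of rats 7 and 10 come from a probe not well above background there. Without rat 7 the differences were -0.0095 for Ms4a1 and -0.026 for Cd79b, so their sign rests on that rat.

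Cd22, an inhibitory co-receptor of the B cell receptor (probe at chr1:86003813-86003872, minus strand, rn3), ran from -0.15 through -0.018 to 0.11 at low calcium and from -0.41 through -0.045 to 0.30 at high calcium. The high calcium rats spread more widely than the low calcium rats, with an SD of 0.23 (n = 8) against 0.082 (n = 9), and 4 of them lay below and 2 above every low calcium rat. The difference in mean was -0.04 ± 0.076 (SE; unadjusted p = 0.62, limma). The difference in spread was not tested.

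Blnk encodes the adaptor that links the B cell receptor to its downstream enzymes (probe at chr1:246214163-246216974, minus strand, rn3). Its log2 ratio ran from -0.36 through 0.065 to 0.40 at low calcium and from -0.10 through 0.070 to 0.24 at high calcium. The high calcium rats lay inside the low calcium range, and the difference was -0.01 ± 0.096 (SE; unadjusted p = 0.88, limma). The signs of the Cd22 and Blnk differences changed under other normalizations.

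For the genes not found by name, the array held probes whose descriptions named a similar protein, found outside the rule. LOC687079, described as similar to CD79A, ran from -0.25 through -0.018 to 0.051 at low calcium and from -0.043 through 0.069 to 0.26 at high calcium. In all 8 high calcium rats it exceeded the mean of the low calcium group, but 3 of them lay below the low calcium median. The difference was 0.14 ± 0.053 (SE; unadjusted p = 0.0146, adjusted p = 0.43, limma). Within slides 1 to 4 it was -0.019, 0.0047, 0.30 and 0.19. The probe was well above background on 15 arrays and not on those of low calcium rats 7 and 8, both on slide 3. LOC684630, described as similar to POU2AF1, a coactivator of B cell transcription, differed by -0.03 ± 0.06 (SE; unadjusted p = 0.60, limma). Centred within each diet, LOC687079 had a correlation of 0.067 with the mean of the 4 B cell genes and LOC684630 one of -0.34 over the 17 rats. With the mean of Igj and Tnfrsf17, LOC687079 had a correlation of 0.41 and LOC684630 one of -0.35.

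Whether 1 B cell gene, Ms4a1, and 1 plasma cell gene, Igj, differed in their response to the diet was asked rat by rat. No other pair was contrasted. The log2 ratio of Ms4a1 minus that of Igj ran from -0.67 through a median of -0.14 to 0.24 at low calcium and from -0.20 through 0.24 to 0.43 at high calcium. Each of the 8 high calcium rats exceeded the mean of the low calcium group, and the difference between the diets was 0.42 (SE 0.14). Its p was 0.0121 in a two-sided exact permutation test over 24310 assignments of the rats. Over all rats Ms4a1 differed by 0.05 and Igj by -0.37, so the contrast largely repeats the Igj difference. It does not speak for the other genes of either stage. Within slides 1 to 4 the difference was 0.58, 0.75, 0.38 and 0.06, positive on each. On slide 3, however, Igj itself was not lower at high calcium (0.05), and the difference came from Ms4a1 (0.44). Ms4a1 was not well above background in the low calcium rats of that slide, 7 and 8, nor in rat 10 on slide 2. With the slide as a block the difference of Ms4a1 minus Igj was 0.44 (p = 0.0278, permutation test). The difference remained positive but its exact permutation p was 0.0594 without background correction, 0.252 with median centring, 0.115 with the scanner software's processed signals and 0.055 with the Cy5 channel alone.

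The 7 genes form 21 pairs, of which 14 had a positive correlation over the 17 rats. After adjustment over the 21 pairs, 2 passed 0.05, both positive, and each lay within a cell stage, though the other pairs of B cell genes did not pass. With median centring another pair also passed, Blnk and Pigr, whose r was 0.821 there (adjusted p = 0.0369 by permutation) and -0.204 with loess. Igj and Tnfrsf17 had r = 0.983 and rho = 0.958 (p = 1e-05 each, the smallest that 100000 permutations can give; adjusted p = 0.000105). The r was 0.994 within the high calcium rats and 0.975 within the low calcium rats. It was 0.990 with values centred by slide (16 rats, without rat 1) and 0.969 without rats 5 and 10, which lay farthest from the median. Cd79b and Ms4a1 had r = 0.957 and rho = 0.953 (p = 1e-05 each by permutation; adjusted p = 0.000105). The r was 0.945 at high calcium, 0.974 at low calcium, 0.956 centred by slide and 0.920 without rats 7 and 10.

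Between the stages no pair passed the adjusted threshold, and the difference between correlations was not tested. Ms4a1 and Igj had r = 0.340 and rho = 0.431 (permutation p = 0.183 and 0.0843; adjusted p = 0.407 and 0.230), with r = 0.495 at high calcium, 0.461 at low calcium, 0.267 centred by slide and 0.373 without rats 7 and 10. Rat 7 had the lowest Ms4a1 ratio, from a dim signal, with Igj at 0.17, and rat 5 had the highest Igj. Within the B cell stage, Cd22 and Cd79b had r = 0.519 and rho = 0.598 (permutation p = 0.0322 and 0.0133; adjusted p = 0.158 and 0.093), with r = 0.550 at high and 0.754 at low calcium, and 0.490 without rats 2 and 17.

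Blnk had r = 0.24 with Cd22, -0.20 with Cd79b and -0.27 with Ms4a1, none past the adjusted threshold. With Igj it had r = -0.525 and rho = -0.451 (permutation p = 0.030 and 0.0719; adjusted p = 0.158 and 0.230). The r with Igj was -0.221 at high calcium, -0.774 at low calcium and -0.560 centred by slide, none past the adjusted threshold. Without rats 5 and 15, which lay farthest from the median of Blnk, it weakened to -0.227. Pigr and Igj had r = -0.152 and rho = -0.245 over all rats (permutation p = 0.562 and 0.343), -0.533 within the high calcium rats and 0.443 within the low calcium rats, none of which passed the adjusted threshold.

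**Figure D3:**
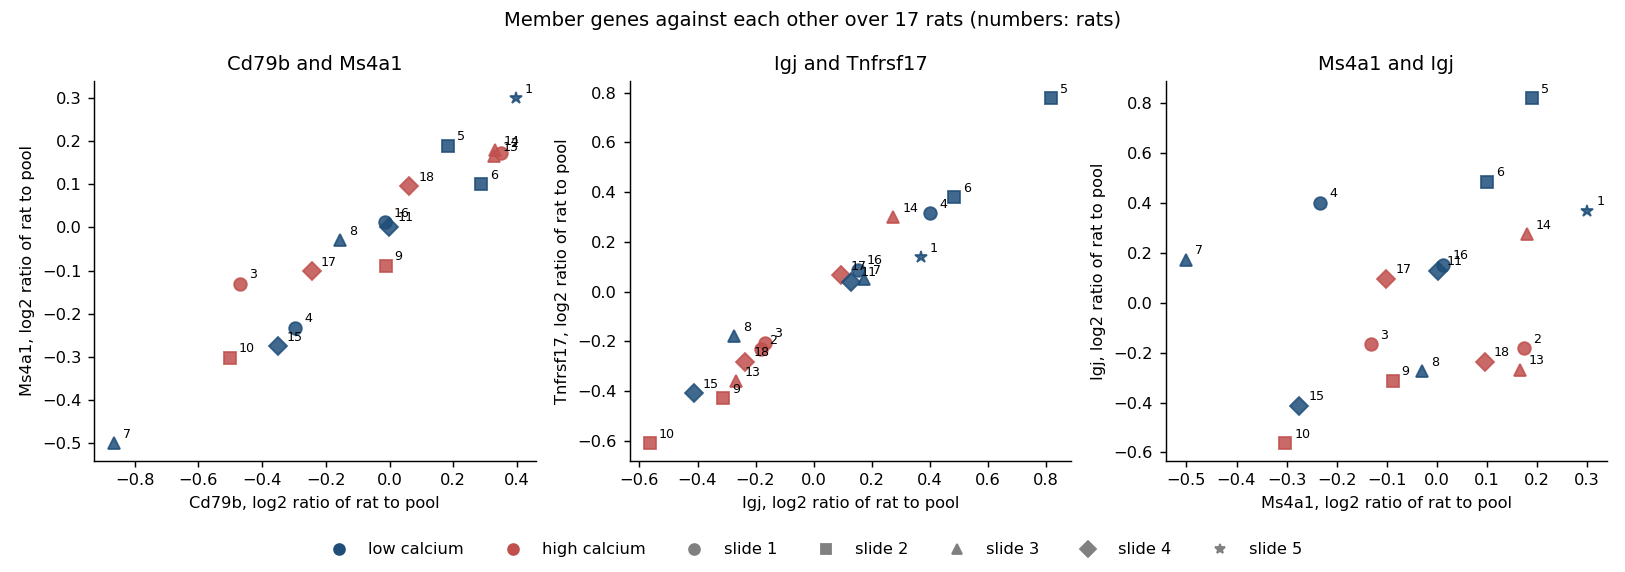
Log2 ratios of 2 genes against each other, 1 mark per rat with its number, coloured by diet (blue low, red high calcium) and shaped by slide: Cd79b and Ms4a1 (left), Igj and Tnfrsf17 (middle), Ms4a1 and Igj (right). The left and middle panels follow a line (r = 0.957 and 0.983), and the right panel scatters (r = 0.340), with rat 7, where Ms4a1 was not well above background, low in Ms4a1 and not in Igj.

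**Figure D4:**
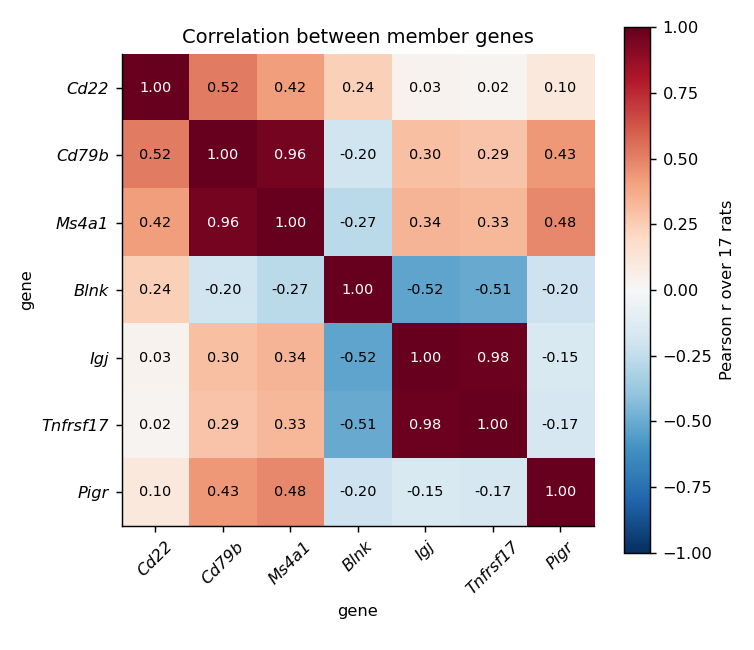
Pearson r over 17 rats for each pair of the 7 genes, from blue (-1) through white (0) to red (1), with the value in each cell. The cells of Cd79b with Ms4a1 (0.96) and of Igj with Tnfrsf17 (0.98) stand out, and Blnk is negative with both plasma cell genes (-0.52 and -0.51).

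The 250 bases before each start are shown for Igj and Tnfrsf17, which moved together, and for Blnk, a B cell gene, beside them. They were read from RefSeq's promoters on GRCr8, which hold 6 of the 9 genes (Igj as Jchain) and not Ms4a1, Cd79b or Pou2af1. Each is 5′ to 3′ on the gene's strand, at chr14:19822726-19822975 (plus) for Igj, chr10:4813773-4814022 (minus) for Tnfrsf17 and chr1:249770534-249770783 (minus) for Blnk. Capitals mark the heptamer TGCAAAT, searched on both strands and found here in its reverse form ATTTGCA; it is the last 7 letters of the octamer ATGCAAAT, the element of immunoglobulin promoters that octamer factors and their coactivator POU2AF1 bind.
Igj: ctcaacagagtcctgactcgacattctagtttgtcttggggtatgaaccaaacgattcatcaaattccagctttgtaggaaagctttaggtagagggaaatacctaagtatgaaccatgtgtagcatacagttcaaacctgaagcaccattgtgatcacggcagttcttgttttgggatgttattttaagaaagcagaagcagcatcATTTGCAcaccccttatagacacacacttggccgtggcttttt
Tnfrsf17: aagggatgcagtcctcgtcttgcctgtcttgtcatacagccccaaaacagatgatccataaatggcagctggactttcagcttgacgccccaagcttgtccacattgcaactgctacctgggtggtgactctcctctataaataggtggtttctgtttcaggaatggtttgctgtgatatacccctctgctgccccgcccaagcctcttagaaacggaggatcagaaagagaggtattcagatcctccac
Blnk: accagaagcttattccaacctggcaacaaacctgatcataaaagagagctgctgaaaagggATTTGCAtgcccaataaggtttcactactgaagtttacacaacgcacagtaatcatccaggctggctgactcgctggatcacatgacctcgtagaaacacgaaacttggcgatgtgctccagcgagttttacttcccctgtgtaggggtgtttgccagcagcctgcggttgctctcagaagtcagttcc
The heptamer began at position -43 from the start of Igj and at -189 in Blnk, where it was part of the whole octamer, and Tnfrsf17, Cd22, Cd79a and Pigr held none in this window. The first 7 letters of the octamer were searched too, and of the 6 genes with a promoter only Blnk held them. Igj held neither these letters nor the whole octamer. Of the 33469 RefSeq promoters cut to the same length, 3.54% held the heptamer, 4.08% the first 7 letters and 1.56% the octamer. The letters alone do not say whether a factor binds there.

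Probes for immunoglobulin chains, the product of plasma cells, were found by their descriptions. Of 56 such probes 26 were tested, of which 22 were lower and 4 higher at high calcium, with a median of -0.15. At an unadjusted p under 0.05, 8 of the 26 (30.8%) were lower, against 4.84% of all probes, 0 were higher against 3.95%, and none passed the adjusted threshold (limma). Immunoglobulin chains are near copies of each other, so a probe may take up RNA of several genes and the probes are not independent. The count was 4 without rat 10, 5 without any 1 of rats 4, 5, 9, 11, 13, 16 and 18, and 1 with median centring. The alpha heavy chain (LOC314487), the chain of IgA, ran from -1.50 through 0.27 to 0.72 at low calcium and from -0.92 through -0.55 to 0.16 at high calcium. Its difference was -0.51 ± 0.24 (SE; unadjusted p = 0.041, adjusted p = 0.54, limma), with 7 of 8 high calcium rats below the low calcium mean. Over the 17 rats its r with Igj was 0.86 and with Ms4a1 0.17. The gamma2a constant region differed by -0.33 ± 0.14 (SE; unadjusted p = 0.023, limma) with an r of 0.71 with Igj. The gamma-2B constant region differed by -0.10 ± 0.23 (SE; unadjusted p = 0.65, limma), and its r was 0.58 with Igj and 0.73 with Ms4a1. Of the other 3 among the 6 brightest probes, a heavy chain variable region (LOC366751) differed by -0.34 ± 0.11 (SE; unadjusted p = 0.0070, adjusted p = 0.35, limma) with an r of 0.90 with Igj. A probe for a heavy chain described by its likeness to a human one differed by -0.00064 ± 0.056 (SE), with an r of -0.23, and one for a gamma variable region described in the same way by -0.08 ± 0.089 (SE), with an r of 0.49. Over the 26 probes the median r was 0.59 with Igj and 0.15 with Ms4a1, and these correlations are given as a description.

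Other genes were taken from 5 lists of the B lineage and of its induction, homing and follicles. Some are made by other cells, such as Madcam1 of vessels and Tnfsf11 of follicle stroma, so the counts do not describe the B lineage alone. The lists were chosen with earlier results of these data known, so their counts beside the share of all probes are a description. They held 86 genes in all, of which 56 were tested. Of these 40 were lower and 16 higher at high calcium, with 9 lower and 1 higher at an unadjusted p under 0.05 (17.9% against 8.79% of all probes) and none past the adjusted threshold. Of all probes tested, 46.1% were lower whatever their p. The median difference was -0.040, against 0.0068 over all probes. Without rat 6 the count of 10 was 6, and with median centring it was 0.

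Among 18 genes of the B cell receptor and surface, 11 were lower and 7 higher, with a median of -0.013. Fcgr2b, the inhibitory Fc receptor that B cells share with myeloid cells, was the 1 gene of them at an unadjusted p under 0.05 and differed by -0.58 ± 0.19 (SE; unadjusted p = 0.0053, adjusted p = 0.32, limma). The kinase Btk differed by -0.09 ± 0.061 (SE; unadjusted p = 0.18, limma) and the adaptor Dapp1 by -0.10 ± 0.075 (SE; unadjusted p = 0.18, limma). Among 7 transcription factors of B and plasma cells 4 were lower and 3 higher with a median of -0.0011, and Tcf3 (0.07), Pou2f1 (0.07) and Prdm1 (-0.08), which drives the plasma cell programme, had the smallest p of the list, none under 0.05.

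Of 8 genes of plasma cell survival and secretion, 6 were lower and 2 higher, with a median of -0.086. Mzb1, a chaperone of antibody assembly listed on the array as RGD1310251, differed by -0.25 ± 0.11 (SE; unadjusted p = 0.032, limma). Fkbp11, a folding factor of secretory cells, differed by -0.12 ± 0.057 (SE; unadjusted p = 0.042, limma), and Cd38, a surface enzyme of plasma and other cells, by 0.15 ± 0.067 (SE; unadjusted p = 0.039, limma), opposite to Igj in sign. Of 11 genes of IgA induction and homing to the gut, 9 were lower and 2 higher, with a median of -0.11, and 4 (36.4%) were lower at an unadjusted p under 0.05, against 4.84% of all probes. Cxcr4, the receptor that holds plasma cells in their niche, differed by -0.28 ± 0.076 (SE; unadjusted p = 0.0014, adjusted p = 0.21, limma) with 8 of 8 high calcium rats below the low calcium mean. Madcam1, the vessel ligand for gut-homing lymphocytes, differed by -0.34 ± 0.11 (SE; unadjusted p = 0.0044, limma), also with 8 of 8 below. Tgfbr2, a receptor for the cytokine that drives the switch to IgA, differed by -0.12 ± 0.051 (SE; unadjusted p = 0.028, limma).

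Of 12 genes of lymphoid follicles, 10 were lower and 2 higher, with a median of -0.11. Tnfsf11, the RANK ligand that follicle stroma shows to the epithelium, differed by -0.32 ± 0.092 (SE; unadjusted p = 0.0022, adjusted p = 0.24, limma). Ccr6, a chemokine receptor of B cells and dendritic cells, differed by -0.25 ± 0.091 (SE; unadjusted p = 0.011, limma), and its ligand Ccl20 by -0.38 ± 0.19 (SE; unadjusted p = 0.059, limma).

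Markers of other cell types also had differences between the diets, none past the adjusted threshold. These lists too were chosen with earlier results of these data known, so their shares are a description. Of 6 macrophage markers all were lower at high calcium, 4 (66.7%) with an unadjusted p under 0.05, against 4.84% of all probes, with a median of -0.21; of all probes 46.1% were lower in sign. Their mean ratio per rat was -0.57 to -0.03 at high and -0.13 to 0.25 at low calcium. Of 10 T cell markers 9 were lower, 1 (10.0%) at that threshold, with a median of -0.064 and a mean ratio per rat of -0.25 to 0.048 at high and -0.17 to 0.17 at low calcium. Of 13 epithelium markers 10 were higher, 1 (7.69%) at that threshold against 3.95% of all probes, with a median of 0.084 and a mean ratio per rat of -0.14 to 0.31 at high and -0.29 to 0.15 at low calcium. Of 7 smooth muscle markers 4 were lower and 3 higher, with a median of -0.088. At an unadjusted p under 0.05, 1 was lower and 1 higher (28.6% against 8.79% of all probes in either direction). All 10 T cell, all 6 macrophage and all 13 epithelium markers tested were well above background on every array. Their part in the Igj and Pigr differences was not tested.

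**Figure D5:**
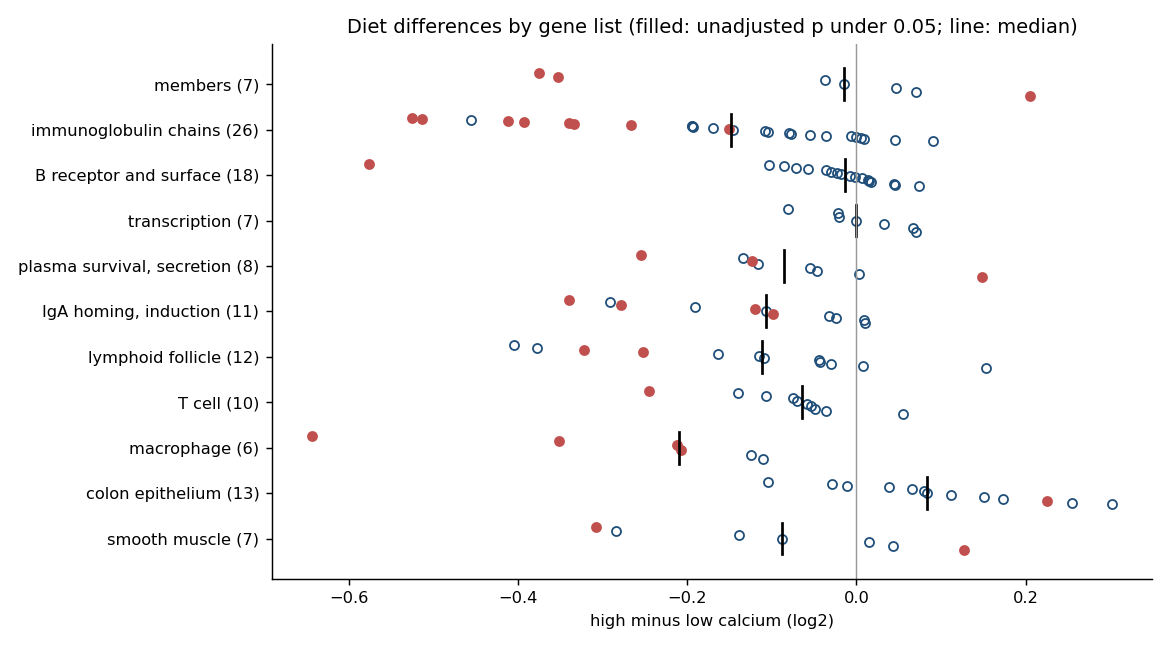
Diet differences (high minus low calcium, log2, horizontal axis) of the 7 genes, the 26 immunoglobulin probes and each gene list, 1 circle per gene, filled where the unadjusted p is under 0.05, with a line at each median and the number tested in brackets. Immunoglobulin probes (median -0.15) and macrophage markers (-0.21) lie mostly left of 0, genes of the B cell receptor and surface (-0.013) straddle it, and epithelium markers (0.084) lie mostly right.

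To see which genes followed the B cell and the plasma cell genes from rat to rat, each of 23043 genes was correlated with the mean of the 4 B cell genes and with that of Igj and Tnfrsf17, after centring within each diet. Nearest to the B cell genes were Faim3 (r = 0.93), the IgM Fc receptor, Atp6v1g3 (0.90), a proton pump subunit, Cr2 (0.89), the complement receptor of B cells and follicular dendritic cells, Stk23 (0.86) and Gga2 (0.82). Over all genes the median r was 0.005 and the 95th percentile 0.385. The 4 B cell genes did not all move together. Over the 17 rats Cd79b and Ms4a1 had r = 0.957, but Blnk had -0.20 with Cd79b and -0.27 with Ms4a1. Genes near their mean are therefore not near each of the 4. Nearest to the plasma cell genes were Wee1 (0.83), a kinase that holds cells before mitosis, Orc1l (0.82), of the replication origin complex, Cdca8 (0.82), of the mitotic chromosome passenger complex, Sap1 (0.81) and Ccne2 (0.80), a cyclin of S phase entry, against a median of -0.021 and a 95th percentile of 0.539. These are the highest of many values over the same 17 rats. None of the 10 genes differed by diet at an unadjusted p under 0.05, and the smallest was 0.15 (Gga2, limma). Of the members outside each mean, Ms4a1 had an r of 0.47 and Blnk of -0.63 with the plasma cell genes, and Igj of 0.16 and Pigr of 0.36 with the B cell genes.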

How the data were processed

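Colon mucosa scrapings of 17 rats were hybridised singly, each in Cy5 against a Cy3-labelled pool of all animals, with no dye swap, per the labels' protocols. The deposited scanner files hold spot and background intensity and the log10 ratio of both channels, written, per the file headers, by version 9.5.1.1 of Agilent's Feature Extraction. The deposited series matrix holds log2 values of the same arrays, with the same median on each; the sources used here do not give how the authors scaled and centred them. It served as an alternative.

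Mean signals were corrected with normexp (offset 50), normalized by loess within arrays and fitted with limma 3.58.1 (R 4.3.3), high against low calcium. Control spots were left out, and probes were tested where at least 8 arrays had them well above background in Cy5, with Benjamini-Hochberg adjustment over all 27083. Groups came from the sample titles, and the rats were taken as separate animals. The fit was also run on simulated data with 200 changed probes, whose outcome is not given here. The simulated noise was independent between probes and held no slide effect, unlike these data. Where a gene of a list had several probes, the brightest was used. The text names every member, the 3 genes of smallest p in each wider list, the 6 brightest immunoglobulin probes and the 5 genes most alike to each stage. The members and lists were chosen with earlier results of these data known. The alternatives were other background corrections, normalizations, filters and variance models, the slide as a block and leaving out each rat.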

Additional observations from a re-analysis of the deposited data

How the results depend on the processing

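Igj and Tnfrsf17 were lower and Pigr higher at high calcium under all 11 other settings, at -0.43 to -0.26, -0.46 to -0.27 and 0.20 to 0.27, with an unadjusted p under 0.05 in 6, 6 and 9 of them (limma). Settings with other filters, variance models or the slide as a block reuse the main ratios, so they are not separate checks. Where the ratios changed, the unadjusted p of Igj was 0.0169 with normexp offset 0 and 0.069 to 0.23 otherwise (limma). That of Tnfrsf17 was 0.0184 with offset 0 and 0.072 to 0.21 otherwise, and that of Pigr ran from 0.0135 to 0.33 (limma). No member passed the adjusted threshold in any setting, the lowest adjusted p being 0.18. The count of members at an unadjusted p under 0.05, 3 in the report, was 1 without background correction, with processed signals, with the Cy5 channel alone and with the series matrix values, 0 with median centring, and 2 to 3 with a rat left out. The count of genes of the wider lists at an unadjusted p under 0.05 was 0 with median centring, 6 with the series matrix values and 6 to 13 with a rat left out. The count of lower immunoglobulin probes, 8 in the report, was 4 with processed signals and with the series matrix values, 5 without background correction and with the Cy5 channel alone, 1 with median centring, and 4 to 10 with a rat left out. Probes past the adjusted threshold numbered 2 with processed signals and 0 to 193 with a rat left out; only leaving out rat 3 (193) or rat 16 (38) gave any. Ms4a1 minus Igj was 0.38 without background correction, 0.31 with median centring, 0.59 with processed signals and 0.41 with the Cy5 channel alone, and 0.37 to 0.48 with a rat left out. Pairs of members past the adjusted threshold numbered 4 with the Cy5 channel alone, where Cd22 with Cd79b and with Ms4a1 joined, and 3 with median centring. Blnk turned to 0.0153 without background correction, 0.053 with median centring, 0.0193 with processed signals, 0.0176 with the Cy5 channel alone, 0.0212 with the series matrix values and 0.0386 with array weights. Cd22 turned to 0.0302 with median centring, 0.0137 with the Cy5 channel alone, 0.0336 with the series matrix values and 0.0219 with array weights. The r of Blnk and Igj was 0.10 with median centring. With a rat left out, Cd22 ranged from -0.089 to 0.013, Cd79b from -0.026 to 0.14, Ms4a1 from -0.0095 to 0.091 and Blnk from -0.069 to 0.026. The causes were not tested. The mean over probes of a gene was not run, since each member has 1 probe, nor were array weights for Ms4a1 minus Igj, and Ms4a1 is absent where probes had to be above background on all arrays. No paired analysis was possible because the diets share no replicate number.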

Other observations

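Chosen after the data were seen, 12 relations over the 17 rats were computed between Ms4a1, Igj or Pigr and the mean ratio of the T cell, macrophage, epithelium and smooth muscle markers. Their r ranged from -0.47 to 0.28, and the adjusted p from 0.42 to 0.91 (permutation tests). Igj and the epithelium markers had r = -0.470 and rho = -0.434 (permutation p = 0.058 and 0.082), with r = -0.178 within the high and -0.439 within the low calcium rats, and -0.343 without the 2 rats farthest from the median. With median centring in place of loess, the r of Pigr with the 4 marker lists was 0.796 to 0.879, and that of Igj with the epithelium markers was 0.117, so these relations depend on the scaling.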
